A study of Mus musculus with 12 samples.

Results

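The genes described here encode the phagocyte oxidase and the Fc receptors for immunoglobulin G, with the signalling chain that the activating receptors share. Members were taken by symbol: Cybb, Cyba, Ncf1, Ncf4 and Rac2 for the oxidase, and Fcgr1, Fcgr2b, Fcgr3 and Fcer1g for the receptors. Of these 9 genes, 8 had a row among the 25263 symbols of the expression table, and all 8 passed the minimum mean of 1 FPKM (fragments scaled to transcript length and library size) that left 13169 symbols for testing. Cyba had no row under its symbol and was not analysed here. Cybb had 2 rows, and the row with the higher mean (the main row) was used unless stated.

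RNA was sequenced from leukemic cells of adult mouse bone marrow that carried MLL-AF9 (MA9), a fusion oncogene of acute leukemia. The 12 libraries fell into 4 groups of 3. WT-GFP and WT-Cre cells had a wild-type Hoxa cluster (labelled strain C57BL/6), and had received a control GFP retrovirus or a Cre retrovirus. Hoxa-flox and Hoxa-del cells (labelled strain C57BL/6J) carried a floxed Hoxa cluster and had received the GFP virus or the Cre virus, with Cre deleting the cluster. All cells were grown overnight in SCF, GM-CSF, IL-6 and IL-3 before the virus was added, and were sorted for high GFP. The labels do not say whether the 3 libraries of a group came from separate leukemias, animals or cultures, so the p-values measure the spread between these libraries, which may be technical. Floxed and wild-type cells also differ in leukemia and labelled strain, and these cannot be told apart from the floxed allele.

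The phagocyte oxidase makes superoxide from oxygen inside neutrophils and macrophages. Its membrane part is a heterodimer of gp91phox, the catalytic subunit encoded by Cybb, and p22phox, encoded by Cyba. On activation cytosolic subunits, among them p47phox (Ncf1) and p40phox (Ncf4), and a Rac GTPase join them at the membrane. Fc gamma receptors bind antibody-coated particles and start phagocytosis and the oxidative burst. In the mouse Fcgr1, Fcgr3 and Fcgr4 encode activating receptors that signal through the ITAM motif of the Fc receptor gamma chain (Fcer1g), while Fcgr2b encodes the inhibitory receptor.

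Estimated depth ran from 3.94 M fragments in WT-Cre replicate 2 to 18.6 M fragments in WT-GFP replicate 3. Hoxa9, in the targeted cluster, was at 152 to 183 FPKM in wild-type libraries, 217 to 257 FPKM in Hoxa-flox and 83.5 to 119 FPKM in Hoxa-del, so RNA of the cluster was still present in the libraries labelled Hoxa-del. The 6 floxed libraries sorted by label in Hoxa9 but not in Mki67. Hoxa-flox replicate 3 and Hoxa-del replicates 1 and 3 had 84.6 to 93.2 FPKM of the proliferation gene Mki67, while Hoxa-flox replicates 1 and 2 and Hoxa-del replicate 2 had 14.9 to 17.8 FPKM and wild-type libraries 65.1 to 78.2 FPKM. Levels of the members are therefore given for every library.

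Cybb (in its main row), Fcgr1, Ncf1 and Rac2 were lower in floxed than in wild-type cells, and no member was called higher. In Hoxa-flox against WT-GFP, 4 of the 8 members were lower and 0 higher at an adjusted p under 0.05 (limma, Benjamini-Hochberg over all 13169 symbols), beside 26.8% of all tested symbols called in either direction and 13.5% called lower. The same 4 genes were called lower in Hoxa-del against WT-Cre, where the background was 27.2% in either direction and 14.2% lower. The median log2 change of the 8 members was -0.69 and -0.70 in these comparisons, while that of all tested symbols was 0.00 in each. The libraries of 6 members were all lower in Hoxa-flox than in WT-GFP, where 23.3% of all tested symbols lay apart in this direction, and those of 4 members in Hoxa-del than in WT-Cre, where 20.7% did. Changes are on the log2(FPKM + 1) scale, which understates the change of genes at low level.

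Markers of several cell types moved with these genes. Their counts stand beside 26.8% of all tested symbols called in Hoxa-flox against WT-GFP in either direction, and 13.5% called lower. Of 8 macrophage markers, 5 were called lower and 0 higher in Hoxa-flox against WT-GFP. Their summed level was 319 to 361 FPKM in WT-GFP, 345 to 360 FPKM in WT-Cre, 70.9 to 257 FPKM in Hoxa-flox and 62.5 to 248 FPKM in Hoxa-del. The complement genes C1qa, C1qb and C1qc were at 20.9 FPKM or more in every wild-type library and at 0.461 FPKM or less in every floxed one. The list did not move as one: Adgre1, which encodes F4/80, was at 79.8 FPKM in Hoxa-flox and 41.6 FPKM in WT-GFP (log2 change 0.83, limma adjusted p = 0.159), and Cd68, a lysosomal protein gene, at 92.6 and 112.4 FPKM (-0.62, limma adjusted p = 0.551). Of 6 late neutrophil markers, 5 were called lower, with sums of 5594 to 6148 FPKM in wild-type libraries and 130 to 1641 FPKM in floxed ones. Of 6 myeloid progenitor markers 2 were called higher and 2 lower in Hoxa-flox, with sums of 3486 to 5416 FPKM in wild-type libraries and 2801 to 4340 FPKM in floxed ones. The higher ones were Cd34, at 68.9 against 2.04 FPKM (4.52, limma adjusted p = 6.39e-09), and the SCF receptor gene Kit, at 35.3 against 5.25 FPKM (2.54, limma adjusted p = 3.83e-07), and the lower ones Mpo and Elane. Of 3 tested megakaryocyte markers 2 were called lower, Pf4 at 1.69 against 93.5 FPKM and Gp1bb at 5.93 against 60.7 FPKM (limma adjusted p = 6.8e-08 and 9.85e-06), with sums of 142 to 160 FPKM in wild-type libraries and 4.83 to 13.7 FPKM in floxed ones. Their part in the results was not tested, and in bulk RNA fewer cells of a type and less RNA per cell cannot be told apart. Fcer1a and Ms4a2, the other chains of the mast cell IgE receptor, were at 0 to 0.0723 and 0.195 to 1.60 FPKM while Fcer1g was at 152 FPKM or more in all libraries.

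**Figure D1:**
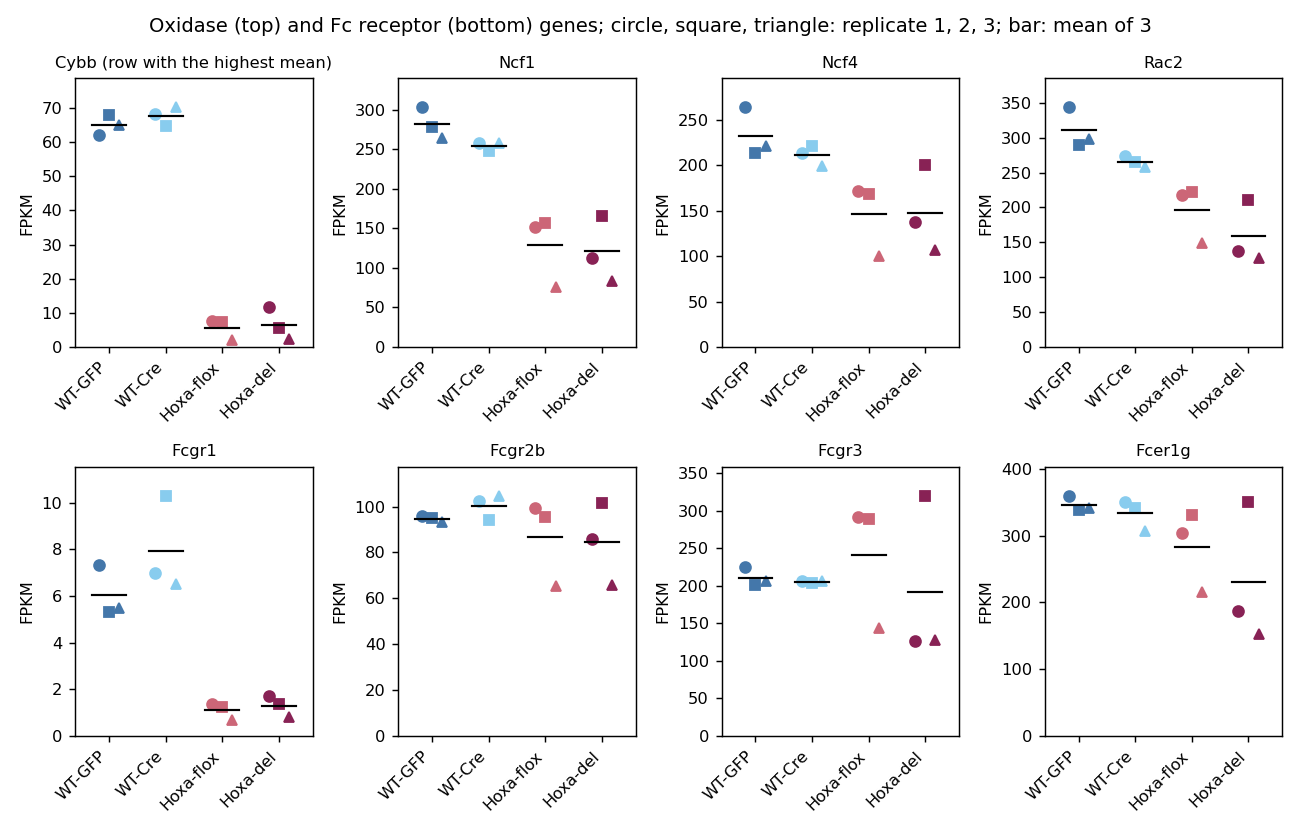
FPKM of the 8 measured genes in each of the 12 libraries, by group (x axis); symbols mark replicates and bars the mean of 3. Cybb and Fcgr1 were lower in every floxed library, while Fcgr2b and Fcgr3 of floxed and wild-type libraries overlapped.

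**Figure D2:**
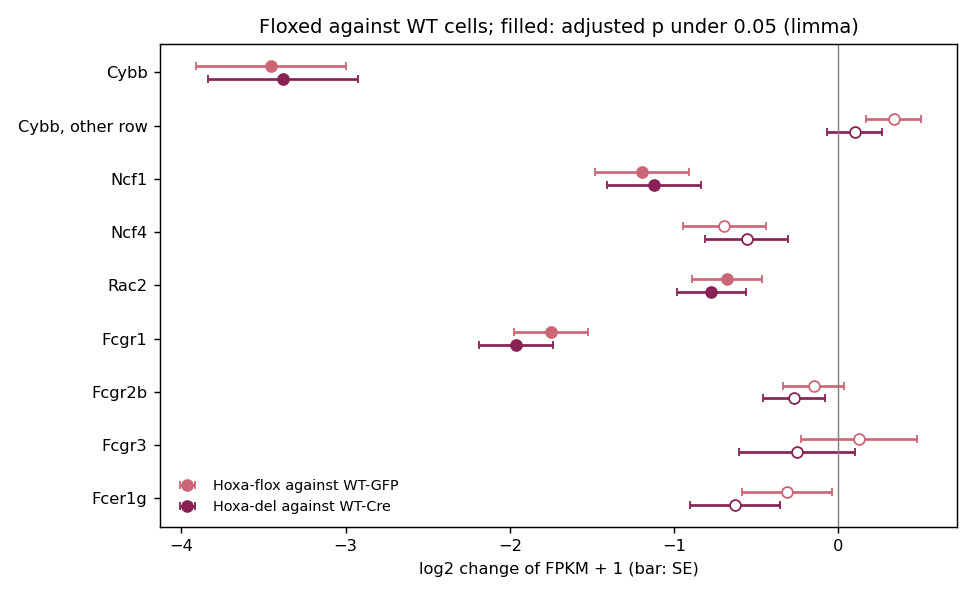
Log2 change of FPKM + 1 (x axis) with its SE for each gene in Hoxa-flox against WT-GFP and in Hoxa-del against WT-Cre, with filled points for an adjusted p under 0.05. Cybb, Fcgr1, Ncf1 and Rac2 are filled in both comparisons, and the other row of Cybb lies on the side of an increase.

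Promoter sequence of Cybb, Ncf1 and Fcgr1 is printed because these were the members with the largest called changes. It is the 250 bases before the RefSeq start (GRCm38.p6), 5′ to 3′ along the gene. RefSeq entries were matched for 7 of the 9 members. Capitals mark matches, on either strand, to GAGGAA (the PU.1 core), TTCNNNGAA (the STAT element) and GAAA followed after 2 bases by GAAA (an interferon response element).
Cybb, chrX:9469325-9469574, minus strand: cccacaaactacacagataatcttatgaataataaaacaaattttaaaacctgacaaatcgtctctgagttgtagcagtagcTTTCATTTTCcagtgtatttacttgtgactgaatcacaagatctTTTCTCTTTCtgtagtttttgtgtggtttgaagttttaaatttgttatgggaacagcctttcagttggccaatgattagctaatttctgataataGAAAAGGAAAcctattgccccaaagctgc
Ncf1, chr5:134229626-134229875, minus strand: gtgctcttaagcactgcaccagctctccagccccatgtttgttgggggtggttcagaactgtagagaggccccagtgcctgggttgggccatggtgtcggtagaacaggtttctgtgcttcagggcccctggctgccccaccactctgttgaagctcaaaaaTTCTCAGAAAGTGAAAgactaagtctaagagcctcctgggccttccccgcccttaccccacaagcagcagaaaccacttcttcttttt
Fcgr1, chr3:96293970-96294219, minus strand: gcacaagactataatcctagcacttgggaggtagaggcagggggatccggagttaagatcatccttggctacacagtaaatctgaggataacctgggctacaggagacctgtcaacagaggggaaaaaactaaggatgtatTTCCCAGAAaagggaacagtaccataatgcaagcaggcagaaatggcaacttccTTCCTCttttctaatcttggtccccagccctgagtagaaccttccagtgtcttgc
Cybb held 3 matches to the interferon response element, starting 168, 124 and 29 bases before the start. In Ncf1 a TTCNNNGAA match and an interferon response element match overlap, and Fcgr1 held GAGGAA and TTCNNNGAA. Over 32851 RefSeq promoters, 23.3% held GAGGAA, 7.02% TTCNNNGAA and 2.98% the interferon response element, and 2 of the 7 member promoters held each. A match is a description of letters and was not tested for binding.

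In its main row, the catalytic subunit showed the lowest level relative to wild type. This rank rests on the row. With the rows added, Cybb in Hoxa-flox was at 44.0% of WT-GFP, beside 45.6% for Ncf1 and 18.2% for Fcgr1. The main row of Cybb stood at 62.1, 67.8 and 65.1 FPKM in WT-GFP replicates 1 to 3 and at 68.1, 64.8 and 70.2 FPKM in WT-Cre. It stood at 7.48, 7.43 and 2.06 FPKM in Hoxa-flox and at 11.7, 5.65 and 2.37 FPKM in Hoxa-del. Every floxed library was far below every wild-type library, and the floxed libraries differed among themselves in both groups. Mean Cybb was 5.66 ± 3.12 FPKM in Hoxa-flox, 8.70% of the 65.0 ± 2.85 FPKM of WT-GFP (SD, n = 3 each), with a log2 change of -3.45 (SE 0.46, limma adjusted p = 0.000233). In Hoxa-del it was 6.58 ± 4.75 FPKM against 67.7 ± 2.71 FPKM in WT-Cre, a log2 change of -3.38 (SE 0.46, limma adjusted p = 0.000274).

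The other row did not show this. The other row named Cybb read 29.6, 23.9 and 28.5 FPKM in WT-GFP, 26.0, 25.1 and 30.6 FPKM in WT-Cre, 31.6, 31.6 and 41.6 FPKM in Hoxa-flox and 23.7, 32.0 and 32.6 FPKM in Hoxa-del. Here Hoxa-flox lay above WT-GFP in all libraries, and Hoxa-del and WT-Cre overlapped. Its log2 change was 0.34 (SE 0.17, limma adjusted p = 0.163) in Hoxa-flox and 0.10 (SE 0.17, limma adjusted p = 0.707) in Hoxa-del, so the direction for Cybb turns with the row. With the rows added, Cybb was 92.3 ± 1.08 FPKM in WT-GFP and 40.6 ± 2.64 FPKM in Hoxa-flox (log2 change -1.17, SE 0.11, limma adjusted p = 1.48e-05), and 95.0 ± 5.52 FPKM in WT-Cre and 36.0 ± 1.43 FPKM in Hoxa-del (log2 change -1.37, SE 0.11, limma adjusted p = 3.96e-06). The sum was far steadier among floxed libraries, at 35.0 to 43.7 FPKM, than the main row was. The other row divided by the main row was 0.352 to 0.476 in wild-type libraries and 2.02 to 20.2 in floxed ones. The table does not tell which transcripts each row holds. GENCODE M21 lists 5 Cybb transcripts at chrX:9435252-9487771 on the minus strand (GRCm38).

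**Figure D3:**
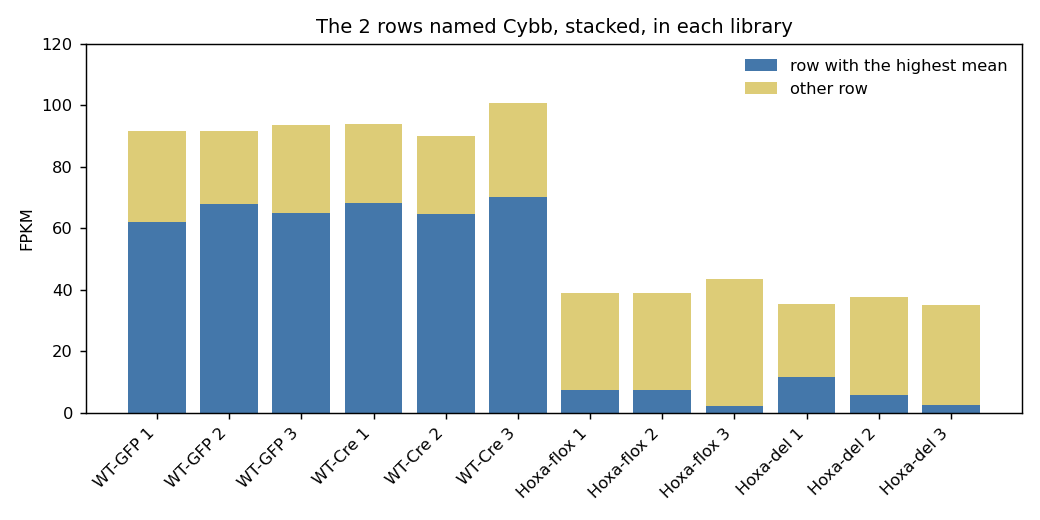
FPKM of the 2 rows named Cybb (y axis), stacked, in each of the 12 libraries (x axis). In wild-type libraries the main row makes up most of the bar, and in floxed libraries the other row does, with sums of 35.0 to 43.7 FPKM.

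Among the cytosolic subunits and the GTPase, p47phox RNA was reduced most. Ncf1, the organiser subunit that carries the complex to the membrane, stood at 303.1, 277.8 and 264 FPKM in WT-GFP and at 258, 247.3 and 257.7 FPKM in WT-Cre. It stood at 151.9, 156.9 and 76.3 FPKM in Hoxa-flox and at 112.6, 165.8 and 83.9 FPKM in Hoxa-del. No floxed library reached the lowest wild-type library. The mean was 128 ± 45.1 FPKM in Hoxa-flox against 282 ± 19.8 FPKM in WT-GFP (log2 change -1.20, SE 0.29, limma adjusted p = 0.00982). It was 121 ± 41.5 FPKM in Hoxa-del against 254 ± 6.08 FPKM in WT-Cre (log2 change -1.12, SE 0.29, limma adjusted p = 0.0138), and that call was lost without Hoxa-del replicate 3 (-0.89, limma adjusted p = 0.0537). Ncf1 overlaps Gtf2ird2 on the opposite strand, which was at 5.28 to 14.0 FPKM.

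Rac2, the Rac GTPase largely limited to blood cells, stood at 343.7, 288.9 and 298.7 FPKM in WT-GFP, 273.1, 265 and 257.6 FPKM in WT-Cre, 217.3, 221.6 and 149.7 FPKM in Hoxa-flox and 138.1, 210.7 and 127.6 FPKM in Hoxa-del. All floxed libraries were again below all wild-type ones. The log2 change was -0.68 (SE 0.21, limma adjusted p = 0.0357) in Hoxa-flox and -0.77 (SE 0.21, limma adjusted p = 0.0196) in Hoxa-del. These calls were not firm: the first was lost without any single WT-GFP library or without Hoxa-flox replicate 3 (limma adjusted p = 0.0724 to 0.116), and the second without any single WT-Cre library or without Hoxa-del replicate 1 or 3 (limma adjusted p = 0.0519 to 0.0721). The first was also lost without the filter on low values (limma adjusted p = 0.0545), and the second with only Hoxa-del and WT-Cre in the fit (limma adjusted p = 0.0601). Ncf4, the subunit that binds phosphatidylinositol 3-phosphate on phagosomes, stood at 264.1, 213.4 and 220.9 FPKM in WT-GFP and at 171.4, 168.9 and 100.4 FPKM in Hoxa-flox. Hoxa-flox lay below WT-GFP throughout, yet the change missed the threshold (-0.70, SE 0.25, limma adjusted p = 0.0633). In WT-Cre it stood at 213.8, 221.2 and 199 FPKM and in Hoxa-del at 137.4, 200.1 and 106.5 FPKM, which overlapped (-0.56, SE 0.25, limma adjusted p = 0.127). Ncf4 (chr15:78244801-78262580, plus strand) and Rac2 (chr15:78559167-78572783, minus strand) lie on the same chromosome, and Ncf1 at chr5:134220053-134229625 on the minus strand (GENCODE M21, GRCm38).

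Rac1, the widely expressed Rac GTPase, was not called in either genotype comparison. It was at 176 to 197 FPKM in Hoxa-flox against 147 to 158 FPKM in WT-GFP (log2 change 0.31, limma adjusted p = 0.123), and at 138.3, 177.6 and 128.9 FPKM in Hoxa-del against 142 to 145 FPKM in WT-Cre (0.04, limma adjusted p = 0.88). Hoxa-del replicates 1 and 3 thus lay below every wild-type library and the other floxed libraries above them all. Rac2 over Rac1 within a library, a ratio that shares its scaling, was 1.81 to 2.18 in wild-type libraries and 0.849 to 1.19 in floxed ones. The ratio was formed after the levels had been seen, is given without a test, and shows unequal change of the pair only.

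Among the receptors, the high-affinity receptor stood apart. Fcgr1, which encodes CD64 and binds monomeric immunoglobulin G, was at 7.31, 5.32 and 5.46 FPKM in WT-GFP and at 6.98, 10.3 and 6.53 FPKM in WT-Cre. It was at 1.38, 1.22 and 0.695 FPKM in Hoxa-flox and at 1.72, 1.35 and 0.791 FPKM in Hoxa-del. Every floxed library was below every wild-type library. The mean was 1.10 ± 0.357 FPKM in Hoxa-flox against 6.03 ± 1.11 FPKM in WT-GFP (log2 change -1.75, SE 0.23, limma adjusted p = 0.000202), and 1.29 ± 0.469 FPKM in Hoxa-del against 7.94 ± 2.06 FPKM in WT-Cre (-1.96, SE 0.23, limma adjusted p = 9.1e-05). The gene lies at chr3:96282909-96293969 on the minus strand (GENCODE M21, GRCm38). At these levels the libraries held an estimated 22 to 263 Fcgr1 fragments each.

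The inhibitory receptor and the low-affinity activating receptor were not called. Fcgr2b was at 95.9, 95.1 and 93.4 FPKM in WT-GFP, 102.4, 94.2 and 104.7 FPKM in WT-Cre, 99.3, 95.3 and 65.6 FPKM in Hoxa-flox and 85.9, 101.4 and 65.8 FPKM in Hoxa-del. The groups overlapped in both comparisons, with log2 changes of -0.15 (SE 0.19, limma adjusted p = 0.605) and -0.27 (SE 0.19, limma adjusted p = 0.32). Fcgr3, the low-affinity activating receptor, was at 225, 200.7 and 206.2 FPKM in WT-GFP and at 206.6, 203.1 and 206.7 FPKM in WT-Cre. It was at 290.9, 289.4 and 143.7 FPKM in Hoxa-flox and at 126.6, 319.5 and 127.2 FPKM in Hoxa-del. Floxed libraries thus fell on both sides of the wild-type range, and the group means hid this (log2 changes of 0.13 and -0.25, SE 0.35, limma adjusted p = 0.83 and 0.651).

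Fcgr3 and Fcgr2b are near copies in part of their coding sequence. The longest stretch they share is 129 bases, at coding positions 278 to 406 of Fcgr2b and 263 to 391 of Fcgr3, printed from the GENCODE M21 transcripts because a read inside it fits either gene.
shared run: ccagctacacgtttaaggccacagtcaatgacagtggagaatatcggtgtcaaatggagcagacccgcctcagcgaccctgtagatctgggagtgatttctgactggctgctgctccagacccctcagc
Of all 50-base windows, 4.75% of those of Fcgr2b and 12.8% of those of Fcgr3 occur in the other gene, and how the counting divided such reads was not tested. Fcgr1 shares no such window with the others.

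Fcer1g, the gamma chain on which the activating receptors depend, was at 359.5, 338.7 and 340.9 FPKM in WT-GFP and at 303.2, 330.8 and 215.8 FPKM in Hoxa-flox. In WT-Cre it was at 350.8, 342.1 and 307.6 FPKM and in Hoxa-del at 186.8, 350.2 and 152.3 FPKM. Hoxa-flox lay below WT-GFP in all libraries and Hoxa-del overlapped WT-Cre, with log2 changes of -0.31 (SE 0.27, limma adjusted p = 0.444) and -0.63 (SE 0.27, limma adjusted p = 0.115). Without Hoxa-del replicate 2, the Hoxa-del library of highest level, the latter was -0.98 (limma adjusted p = 0.00282). Fcgr2b, Fcgr3 and Fcer1g lie within 276 kb of chromosome 1 (chr1:170958617-171234365, GRCm38, all on the minus strand). The gene for the other activating receptor, Fcgr4, was at 67.7 to 73.1 FPKM in WT-GFP, at 81.9, 80.2 and 16.9 FPKM in Hoxa-flox and at 26.0, 84.7 and 16.9 FPKM in Hoxa-del (log2 changes -0.52 and -0.97, SE 0.61, limma adjusted p = 0.578 and 0.273).

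Several members followed the split among the floxed libraries, but Cybb (main row) and Fcgr1 did not. Hoxa-del replicate 1, of higher Mki67, had the highest floxed level of both, at 11.7 and 1.72 FPKM. As a percent of the WT-GFP mean, Fcgr3 was at 138.1, 137.4 and 151.7 in Hoxa-flox 1, Hoxa-flox 2 and Hoxa-del 2, and at 68.2, 60.1 and 60.4 in Hoxa-flox 3, Hoxa-del 1 and Hoxa-del 3. Fcer1g was at 87.5, 95.5 and 101.1, then at 62.3, 53.9 and 44.0 in the same order. Ncf1 was at 53.9, 55.7 and 58.9, then at 27.1, 40.0 and 29.8. In each of these genes the libraries with more Mki67 were the lower ones, and for Ncf1 all 6 were still below wild type. The macrophage gene Cd68 followed the same split, at 112, 114.5 and 108 percent, then 20.6, 21.7 and 20.2 percent. Fcgr3 over Fcgr2b was 1.97 to 2.35 in wild-type libraries, 2.93, 3.04 and 2.19 in Hoxa-flox and 1.47, 3.15 and 1.93 in Hoxa-del. The split was seen in the data and crosses the labelled groups, so its own effect received no test. It entered only as a term in an alternative fit of Hoxa-del against Hoxa-flox and of the difference of Cre effects.

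**Figure D4:**
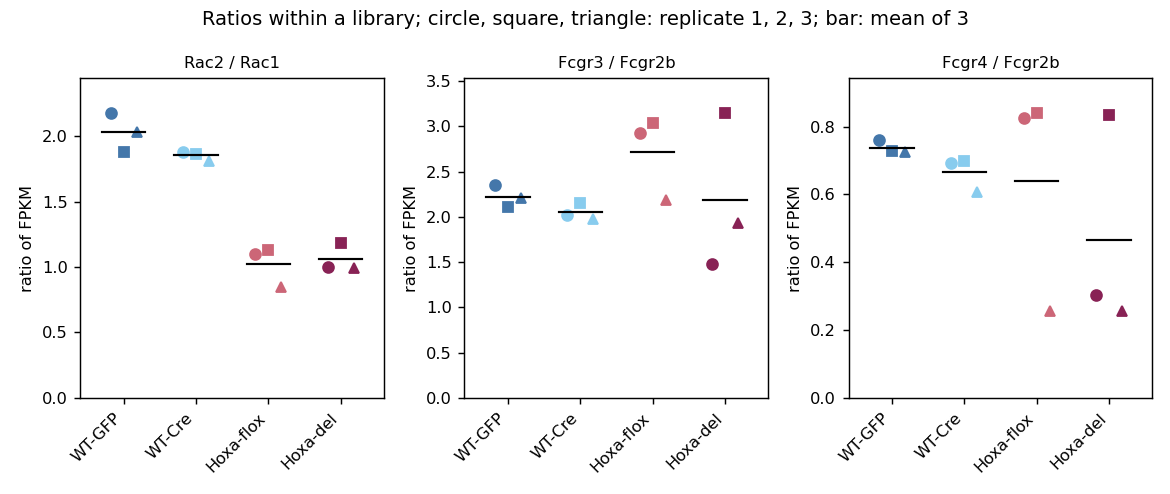
Ratios of FPKM within a library (y axis) by group, with symbols for replicates and bars for the mean of 3. Rac2 over Rac1 does not overlap between wild-type and floxed libraries, while Fcgr3 over Fcgr2b lies on both sides of its wild-type range in Hoxa-del.

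**Figure D5:**
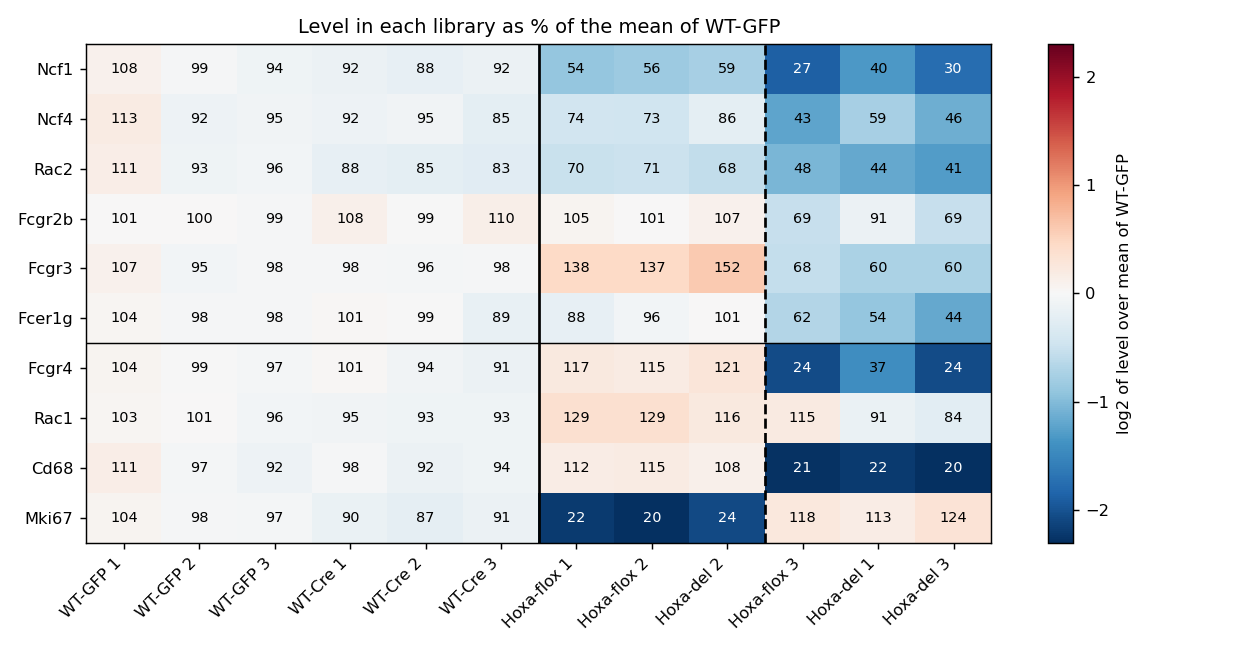
Level of each gene in each library as a percent of the WT-GFP mean (numbers and color, log2 scale), with wild-type libraries left of the solid line and floxed libraries right of it; the dashed line parts floxed libraries with low and high Mki67. Fcgr3 passes from 138.1, 137.4 and 151.7 percent to 68.2, 60.1 and 60.4 percent across the dashed line.

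Libraries were also left out by Mki67, in each fit only within the floxed group compared. The other floxed group kept all its libraries in that fit. Without Hoxa-flox replicate 3, of higher Mki67, Cybb and Fcgr1 were still called lower in Hoxa-flox. The log2 changes were -2.96 and -1.60 (limma adjusted p = 0.000407 and 0.00069). Without Hoxa-del replicates 1 and 3, Cybb and Fcgr1 had log2 changes of -3.37 and -1.91 in Hoxa-del. Ncf1 then had -0.61 in Hoxa-del. That fit called 33.7% of all tested symbols, but it kept a single Hoxa-del library, so calls of members are not counted in it. Without Hoxa-flox replicate 3, Rac2 had -0.49 in Hoxa-flox (limma adjusted p = 0.0891). There 3 of 8 members were called, beside 31.9% of all tested symbols. With only libraries of higher Mki67 kept in Hoxa-del (without replicate 2), 6 of 8 members were called lower, beside 30.3% of all tested symbols. Ncf4 (-0.80, limma adjusted p = 0.024) and Fcer1g (-0.98, limma adjusted p = 0.00282) joined there, and Ncf1 had -1.38 (limma adjusted p = 0.00402). Hoxa-del replicate 2, the library left out, had the highest Hoxa-del level of Ncf4, Fcer1g and Ncf1. Leaving it out was bound to widen these changes, so the calls add no separate support. With replicate 3 alone kept in Hoxa-flox, Ncf4 had -1.20 and Ncf1 -1.87. The fits on Hoxa-del of lower Mki67 and on Hoxa-flox of higher Mki67 each kept a single library of that group. That library is assumed to vary like the other groups, so only log2 changes of members are given for these fits.

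The Cre virus in floxed cells moved no member past the threshold. Hoxa9 was lower but not gone in these Hoxa-del libraries (106 FPKM on average against 237 FPKM in Hoxa-flox). The comparison is thus one of partial loss of Hoxa9 RNA, and other genes of the cluster are not given here. In Hoxa-del against Hoxa-flox 0 of 8 were called by limma, and 0 had an unadjusted p under 0.05, beside 0.0304% and 6.27% of all tested symbols. The changes ran from -0.41 for Fcgr3 (SE 0.35, adjusted p = 0.754) to 0.13 for Cybb (SE 0.46, adjusted p = 0.93), and no member's groups were apart, while 6.39% of all tested symbols had groups apart. The SD of Fcgr3 was 84.6 FPKM in Hoxa-flox and 111 FPKM in Hoxa-del, beside 12.8 and 2.05 FPKM in the wild-type groups, so a change by Cre had to be large to be seen. Without Hoxa-del replicate 2, Fcer1g was called (-0.72, limma adjusted p = 0.049). That fit sets Hoxa-del replicates 1 and 3, both of higher Mki67, against Hoxa-flox replicates mostly of lower Mki67. Calls over all symbols rose in it too (given below), and Cre and the Mki67 split cannot be told apart there. In WT-Cre against WT-GFP 0 of 8 were called and 0 had an unadjusted p under 0.05, beside 0.0152% and 2.37% of all tested symbols. Ncf1 and Rac2 were lower in every WT-Cre library than in every WT-GFP library, by -0.14 and -0.22 in log2 (limma adjusted p = 1 for each), where 16.3% of all tested symbols lay apart in this direction. The difference of the 2 Cre effects called 0 of 8 members, with 0 at an unadjusted p under 0.05, beside 0.00759% and 2.46% of all tested symbols, and ran from -0.37 (Fcgr3, SE 0.50) to 0.14 (Ncf4).

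Other genes of the pathway came from lists of partners, receptors and signalling genes. Of 12 oxidase partners and regulators 11 were tested, with 4 called lower and 0 higher in each genotype comparison. Counts of these lists stand beside the 26.8% (Hoxa-flox) and 27.2% (Hoxa-del) of all tested symbols called in either direction, and nothing particular to a list is read from them. Hvcn1, the proton channel that balances charge during the burst, was at 5.84 FPKM in Hoxa-flox and 32.2 FPKM in WT-GFP (log2 change -2.29, SE 0.22, limma adjusted p = 1.92e-05). Pak1, a kinase that phosphorylates p47phox, was at 15.9 and 35.7 FPKM (-1.12, limma adjusted p = 1.79e-05). Vav1, an exchange factor for Rac, was at 55.5 and 84.8 FPKM (-0.60, limma adjusted p = 0.00155), and Rap1a, a small GTPase found with the membrane subunits, at 13.8 and 26.6 FPKM (-0.998, limma adjusted p = 0.0187). Rap1a was not called in Hoxa-del against WT-Cre (-0.50, limma adjusted p = 0.198), where the fourth gene was Prkcd, a protein kinase C gene (-0.75, limma adjusted p = 0.032). None of the 6 other NADPH oxidase genes with a row reached the minimum for testing, with summed levels of 0.461 to 2.46 FPKM.

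Downstream of the receptors, 16 signalling genes were tested, with 6 lower and 1 higher in Hoxa-flox and 7 lower and 1 higher in Hoxa-del. The higher gene was Btk, a kinase of B cell and myeloid signalling, at 98.5 FPKM in Hoxa-flox and 61.9 FPKM in WT-GFP (0.66, limma adjusted p = 0.0011). Lower genes included the adapter Sh2b2 (-1.16, limma adjusted p = 1.93e-05), the ubiquitin ligase Cbl (-0.88, limma adjusted p = 0.00169) and Inpp5d, which encodes SHIP1, the phosphatase recruited by Fcgr2b (-0.64, limma adjusted p = 0.00478). Syk, the kinase that docks on the ITAM, had a log2 change of 0.01 (limma adjusted p = 0.982).

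Of 10 tested ITAM adapters and their receptors, 5 were lower and 2 higher in Hoxa-flox, and 6 lower and 1 higher in Hoxa-del. Trem1, an activating receptor of neutrophils and monocytes, was at 8.45 FPKM in Hoxa-flox and 139.5 FPKM in WT-GFP (-3.91, limma adjusted p = 3.37e-08). The lectin receptor Clec4n, which pairs with the gamma chain, was at 0.690 and 34.2 FPKM (-4.43, limma adjusted p = 3.91e-08). Trem2, a lipid receptor of macrophages, was at 0.623 and 16.9 FPKM (-3.53, limma adjusted p = 4.1e-05), and Clec7a, the beta-glucan receptor, at 3.04 and 11.8 FPKM (-1.67, limma adjusted p = 0.000179). Of 3 other Fc receptor genes tested, 0 were called in either genotype comparison. Of 6 tested transcription factors of these promoters, Runx1 was called lower in both (-0.95 and -0.69, limma adjusted p = 0.00259 and 0.016), and Spi1, which encodes PU.1, had -0.53 and -0.34 (limma adjusted p = 0.0712 and 0.235).

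Profiles over the 12 libraries were compared by the root mean square difference of centred log2(FPKM + 1). Ncf4 and Rac2 were the closest pair of members (0.149) and Cybb and Fcgr3 the farthest (1.77). The gene most like Cybb was Clec12a, an inhibitory lectin receptor of myeloid cells (0.222), and that most like Fcgr1 was Plbd1 (0.171). For Fcgr3 it was Npc2 (0.0695), for Ncf1 Gm15753 (0.0758), for Rac2 Limd2 (0.0712), for Ncf4 Palm (0.0742), for Fcgr2b Cacfd1 (0.0659) and for Fcer1g Abhd12 (0.0879).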

How the data were processed

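Total RNA was made into stranded libraries after ribosomal RNA removal and sequenced on a NextSeq instrument, per the labels' protocols. The submitters' processing notes name STAR, Cufflinks and Cuffdiff 2.2.2.20150701, with mm10 and GRCm38 as builds. The deposited table gives 1 value per row and library, whose unit is not stated and was taken as FPKM made by the authors, from the tools named and the size of the values. For the 1855 symbols that had several rows, that of highest mean was kept. Counts were not used here. Depth was estimated from the commonest step of 2047 low genes (28.3 to 44.5% of their values lay near it), and fragments per gene are approximate.

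Values were tested as log2(FPKM + 1) with limma 3.58.1 (R 4.3.3, trend) in 1 fit of 4 groups, for symbols averaging 1 FPKM or more, p-values being adjusted by Benjamini-Hochberg and called under 0.05. Data were simulated for Hoxa-flox against WT-GFP over 13169 genes. Of 100 genes changed by 1 in log2 52% were recovered, and of 100 changed by -2, 90%. The changed genes were drawn from those of higher level than Fcgr1, and 10 unchanged genes were called. Noise was simulated with the same SD in all groups, whereas floxed libraries of several members spread more widely, so these shares may not hold for them. Alternatives were another pseudocount (0.1), no filter, upper-quartile scaling, only the groups compared, a replicate block, summed rows and leaving out each library. The Mki67 split, seen in the data, was a term in a fit of Hoxa-del against Hoxa-flox and of the difference of Cre effects. Chosen after seeing the data were the other Cybb row and leaving out libraries by Mki67 within the floxed group compared. Tables were handled in Python 3.11.15.

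The members and lists were chosen with earlier results of these data known. Genes to name were all members and up to 4 genes a list with the smallest adjusted p in Hoxa-flox against WT-GFP. Where no gene of a list passed, they were the 2 of highest mean. The 2 symbols most like each member were added, of which the closest is given. Not every gene that met this rule is named. Hoxa9, Mki67, Cd68, Adgre1, Prkcd, Rac1, Syk, Spi1, Fcer1a and Ms4a2 fall outside that rule and were named after their values were seen. Gtf2ird2 also falls outside it and was named for its overlap with Ncf1. A gene of the partner list is not reported here.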

Additional observations from a re-analysis of the deposited data

How the results depend on the processing

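For Cybb the choice of row turned the direction: with the other row the log2 change was 0.34 against WT-GFP and 0.10 against WT-Cre. Neither was called (limma adjusted p = 0.163 and 0.707), and with the rows added Cybb was still called lower in both. The cause was not tested. Against WT-GFP, the members called in Hoxa-flox numbered 3 to 4 with 1 library left out, 3 without the filter and 5 with upper-quartile scaling, where Ncf4 joined them. Against WT-Cre, the members called in Hoxa-del numbered 2 to 6 with 1 library left out: 2 without Hoxa-del replicate 3 and 6 without Hoxa-del replicate 2, where Ncf4 and Fcer1g joined. That replicate 2 had the highest Hoxa-del level of both. Of all tested symbols, the main fits called 26.8% (Hoxa-flox) and 27.2% (Hoxa-del), and the fit without Hoxa-del replicate 2 called 30.3%. Shares are not given for every setting, so nothing particular to the members is read from these counts. The fit on Hoxa-del libraries of high Mki67 is the one without Hoxa-del replicate 2, and is not a second result. The fit on Hoxa-del of low Mki67 keeps a single library of that group, so its calls of members are not counted. Between Hoxa-del and Hoxa-flox the members called numbered 0 to 1, with 1 without Hoxa-del replicate 2, where the kept Hoxa-del libraries were both of higher Mki67. No member was called with Cre in wild-type cells or in the difference of the Cre effects under any alternative run.

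Same-numbered libraries were not treated as pairs in the main fit. Their deviations from the group means correlated at 0.011, -0.00535 and 0.0897 in wild-type and at -0.301, 0.6 and 0.721 in floxed cells. In each genotype 3 of 6 libraries correlated best with their own number. With so few libraries these values cannot settle whether the libraries were paired. With a replicate block 5 members were called in Hoxa-flox (Ncf4 joined, adjusted p = 0.035 by limma), 4 in Hoxa-del, and 0 in the other comparisons. The share of all tested symbols called with the block is not given, so nothing particular to the members is read from these counts.

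Over all symbols, the 4 called between Hoxa-del and Hoxa-flox became 7 without the filter, 1 with only those groups and 787 without Hoxa-del replicate 2. The 2 called between WT-Cre and WT-GFP became 5 without the filter, 5 with only those groups, 0 with the replicate block and 0 to 7 with 1 library left out. The 1 called for the difference of Cre effects became 4 without the filter and 1 to 5 with 1 library left out. Depth limits the precision of Fcgr1, at an estimated 22 fragments in Hoxa-del replicate 2.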

Other observations

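Myeloperoxidase, which uses the hydrogen peroxide made from the oxidase's superoxide, varied widely between floxed libraries. Mpo was at 269 to 326 FPKM in WT-GFP and at 180 to 195 FPKM in WT-Cre. It was at 4.42, 3.799 and 31.1 FPKM in Hoxa-flox and at 406.8, 12.5 and 98.2 FPKM in Hoxa-del. Hoxa-del replicate 1 was thus above every wild-type library and the other floxed libraries below them all. The receptor gene Clec4e, which pairs with the gamma chain, was higher in floxed cells, at 30.8 FPKM in Hoxa-flox and 11.5 FPKM in WT-GFP (log2 change 1.35, limma adjusted p = 0.00047, n = 3 each), and was named after its values were seen.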
